A study of Mus musculus with 5 samples.

Results

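Cluster 5 is a group of beta cells, the insulin-secreting cells of the pancreatic islet, in a single-cell RNA study of mouse islets. Its members are the cells that carry cluster number 5 in the authors' deposited table, and each was joined by its identifier to its library and its position in the deposited embedding. They number 1722, which is 14.8% of the 11607 beta cells and 9.45% of all 18221 cells, and cluster 5 ranks 3 by size among the 6 beta clusters. All 1722 are annotated as beta cells. The defining beta cell transcripts, Ins1 and Ins2, could not be checked, because expression per gene was not analysed here.

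All mice carried floxed alleles of Atf6a. Control mice (ATF6α fl/fl) had no Cre, and knockout mice (cKO, ATF6αβKO) also carried RIP-Cre, in which an insulin promoter drives the recombinase in beta cells. Cre itself and the loss of ATF6α therefore come together in this design. The diets supplied 10% (normal) or 60% (high-fat) of their energy as fat, began when the mice were 6 weeks old and ran until islets were taken at 22 weeks. There were 5 libraries, each from the islets of 2 pooled mice: 1 from control mice on each diet and 1 from cKO mice on the high-fat diet, all of batch 1, and 2 of cKO normal diet, 1 of each of 2 batches. The batch 1 normal-diet cKO library held 40 cells in all, against 1033 to 7998 in the other libraries. Shares, their contrasts and the main embedding values below are therefore given with and without it. None of its barcodes recurred in another library. Of the 1722 cells of cluster 5, 34 (1.97%) had a barcode that also occurred in another library, beside 1.54% of all cells, and for 2 of the 34 the partner cell was in cluster 5 too.

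Beta cells make and fold large amounts of proinsulin in the endoplasmic reticulum, and they are known to differ among themselves in maturity, secretory load and stress state. ATF6α is a sensor of unfolded proteins in that compartment. When such proteins accumulate it moves to the Golgi, is cleaved, and its free part enters the nucleus and induces chaperones and other genes of protein folding and degradation. A high-fat diet raises the demand for insulin, to which mouse islets are known to respond with more secretion and more beta cells. Numbered clusters usually divide cells by their expression profile, and nothing in the tables analysed here says what state cluster 5 stands for.

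The first question was how large a part of the beta cells cluster 5 made up in each genotype and diet. In the normal-diet control library, 629 of 4406 beta cells were in cluster 5, or 14.3% (exact 95% binomial interval 13.3 to 15.3%). In the high-fat control library it was 940 of 4841, or 19.4% (18.3 to 20.6%). The high-fat cKO library had 119 of 2093, or 5.69% (4.73 to 6.77%). Of the normal-diet cKO libraries, batch 2 had 13 of 236, or 5.51% (2.97 to 9.24%), and batch 1 had 21 of 31, or 67.7% (48.6 to 83.3%). Both control libraries were thus high, 2 cKO libraries were low and close together, and the 40-cell library stood far above the rest. Among the beta clusters of each library, cluster 5 had rank 1 by size in the 40-cell library, rank 2 in the high-fat control, rank 3 in the normal-diet control and rank 5 in the 2 other cKO libraries. The intervals cover counting error only, not variation between mice or preparations.

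**Figure D1:**
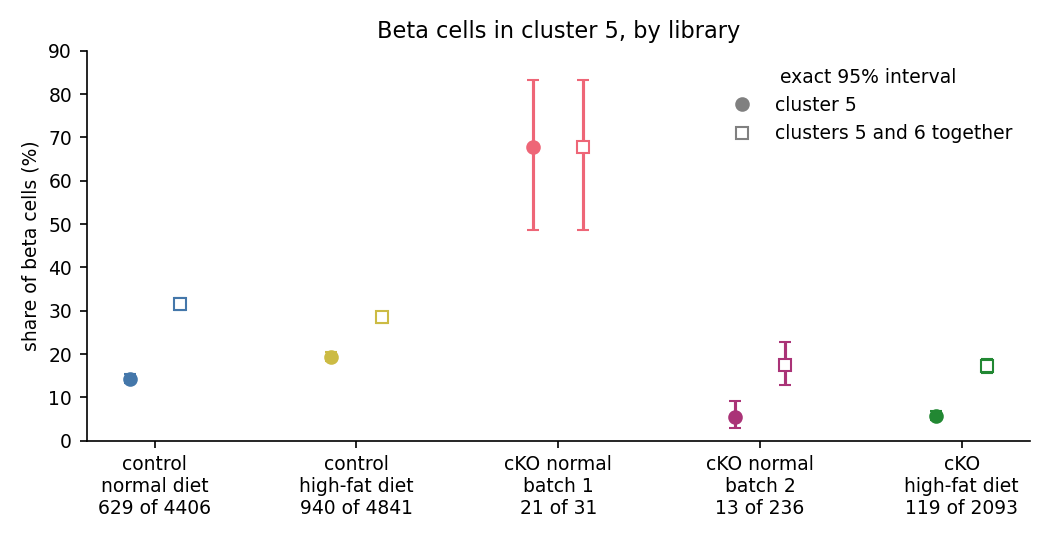
Share of beta cells (vertical axis, %) in cluster 5 (filled circles) and in clusters 5 and 6 together (open squares) for each of the 5 libraries, with exact 95% binomial intervals that lie within the symbols of the larger libraries and the cell counts of cluster 5 below. Cluster 5 was 14.3% and 19.4% of beta cells in the control libraries, 5.51% and 5.69% in 2 cKO libraries and 67.7% in the batch 1 normal-diet cKO library.

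The controls contributed most of the cells. Of all cluster 5 cells, 54.6% came from the high-fat control library, which held 41.7% of all beta cells, and 36.5% from the normal-diet control library, which held 38.0%. The high-fat cKO library gave 6.91% of cluster 5 and 18.0% of all beta cells. The 40-cell library gave 1.22% of cluster 5 from 0.267% of all beta cells, and the batch 2 normal-diet cKO library 0.755% from 2.03%.

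Between the 2 normal-diet cKO libraries, the sole replicates, the share differed by a log2 ratio of 3.62 (95% delta-method counting interval 2.78 to 4.46), or 12.3-fold. Their mean was 36.6% ± 44.0 (SD, n = 2). These 2 libraries were of different batches and include the 40-cell library. Differences between mice, batches and preparations therefore cannot be told apart in this gap. With both libraries in the cKO normal-diet mean, no log2 ratio of shares between groups that follows was larger than this gap. One such value with the 40-cell library alone was, and it is named below. The ratios to other beta clusters, given later, were not set against this gap. The gap rests on the 31 beta cells of the 40-cell library, and without that library no replicate pair remains to give one. A ratio smaller than the gap is therefore not shown to lie within the variation between replicates.

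In control mice, the share of cluster 5 on the high-fat diet was 1.36-fold that on the normal diet (1.24 to 1.49, a log2 ratio of 0.44). Both libraries were of batch 1. In cKO mice the direction depended on the normal-diet library. Against the mean of both, the high-fat share had a log2 ratio of -2.69 (-3.10 to -2.27). Without the 40-cell library the log2 ratio was 0.046 (-0.76 to 0.85), and within batch 1, that is against the 40-cell library alone, it was -3.57 (-4.01 to -3.14).

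Between genotypes on the high-fat diet, both of batch 1, cluster 5 was 3.42-fold lower in the cKO library (2.84 to 4.10, a log2 ratio of -1.77). On the normal diet the cKO mean lay above the control, with a log2 ratio of 1.36 (1.01 to 1.70). Without the 40-cell library the log2 ratio was -1.37 (-2.14 to -0.60), close in direction and size to that on the high-fat diet, and within batch 1 it was 2.25 (1.88 to 2.61). The batch 2 library has no control library of its own batch, so batch and genotype cannot be told apart in that value. Dividing the diet ratio of cKO mice by that of control mice gave a log2 value of -3.13 (-3.57 to -2.70) with both libraries, -0.40 (-1.21 to 0.42) without the 40-cell library and -4.02 (-4.47 to -3.57) within batch 1. The last exceeds the gap of 3.62 but lies within the counting interval of that gap, and it rests on the 31 beta cells of the 40-cell library.

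Over the 5 libraries, the mean share was 26.3% in the 3 cKO and 16.8% in the 2 control libraries, and the groups overlapped (two-sided exact permutation p = 1, Benjamini-Hochberg adjusted p = 1 over the 6 beta clusters). By diet, the 2 high-fat libraries averaged 12.6% and the 3 normal-diet libraries 29.2% (exact permutation p = 0.90, adjusted p = 1). The smallest p this design allows is 0.10. Without the 40-cell library the genotypes did not overlap, at 5.60% in cKO and 16.8% in control libraries. The exact permutation p was 0.33, the smallest that 2 against 2 libraries allow, and the adjusted p was 0.67. The diets still overlapped, at 12.6% on the high-fat and 9.89% on the normal diet (exact permutation p = 0.67, adjusted p = 0.80). Without the 40-cell library the genotypes did not overlap in clusters 3 and 9 either, where the cKO shares were the higher. In clusters 1, 6 and 7 they overlapped. Non-overlap was thus not particular to cluster 5, and shares within a library depend on each other.

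As a share of all cells, which also moves with how many beta cells a library held, cluster 5 was 7.86% (7.28 to 8.48%) in the normal-diet control and 14.1% (13.3 to 14.96%) in the high-fat control library. It was 4.79% (3.99 to 5.71%) in the high-fat cKO library, 1.26% (0.672 to 2.14%) in the batch 2 normal-diet cKO library and 52.5% (36.1 to 68.5%) in the 40-cell library.

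The share of a cluster falls when another cluster grows, so cluster 5 was also set against each other beta cluster. Per cell of cluster 6, its neighbour in the embedding, there were 0.824 cluster 5 cells (0.741 to 0.917) in the normal-diet control library and 2.15 (1.92 to 2.42) in the high-fat control library. In cKO libraries the same ratio was 0.464 (0.221 to 0.926) on the normal diet, batch 2, and 0.494 (0.393 to 0.618) on the high-fat diet. Cluster 5 thus outnumbered cluster 6 in the high-fat control library and not in these 3 others. The 40-cell library had 21 cells of cluster 5 and 0 of cluster 6 (lower limit of the ratio 5.21). When a count of 0 is given a limit of 3 cells, this allows up to 9.68% of its 31 beta cells, which is not an exact binomial limit.

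Clusters 5 and 6 together varied less in control mice and in the opposite direction. They made up 31.6% (30.2 to 32.99%) of beta cells on the normal diet and 28.4% (27.2 to 29.7%) on the high-fat diet, a log2 ratio of -0.15 (-0.24 to -0.06). The higher share of cluster 5 in the high-fat control library therefore holds for cluster 5 alone and not for the pair. In cKO libraries the pair made up 17.4% (12.8 to 22.8%) on the normal diet, batch 2, and 17.2% (15.6 to 18.9%) on the high-fat diet. In the 40-cell library it made up 67.7% (48.6 to 83.3%). With that library the cKO normal-diet mean was 42.6%, above the normal-diet control, with a log2 ratio of 0.43 (0.13 to 0.73). On the high-fat diet the cKO library was below the control for the pair as well, with a log2 ratio of -0.73 (-0.88 to -0.58), which is smaller than for cluster 5 alone.

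Against cluster 1, the largest beta cluster, the order of the libraries differed. There were 0.257 cluster 5 cells per cluster 1 cell (0.235 to 0.281) in the normal-diet control library, 0.547 (0.505 to 0.593) in the high-fat control library and 1.07 (0.821 to 1.40) in the high-fat cKO library. The batch 2 normal-diet cKO library had 0.148 (0.0757 to 0.266). By this ratio both high-fat libraries lay above both of these normal-diet libraries, and the high-fat cKO library was the highest of the 4, although its share of beta cells was among the lowest. The 40-cell library had 21 cluster 5 cells and 0 cluster 1 cells (lower limit 5.21), above both high-fat libraries, so with it the order by diet did not hold.

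Against clusters 3 and 9 the genotypes separated in these 4 libraries. This was not particular to cluster 5: clusters 1, 6 and 7 separated against clusters 3 and 9 in the same direction. Clusters 3 and 9 were larger parts of the beta cells in these cKO libraries than in the controls. Cluster 9 held 71 of 4406 and 58 of 4841 beta cells in the controls on normal and high-fat diet. In the cKO libraries it held 46 of 236 (normal diet, batch 2) and 484 of 2093 (high-fat diet). Per cluster 9 cell there were 8.86 (6.92 to 11.5) and 16.2 (12.4 to 21.5) cluster 5 cells in the control libraries on normal and high-fat diet, and 0.283 (0.140 to 0.532) and 0.246 (0.199 to 0.301) in the cKO libraries. Per cluster 3 cell there were 3.68 (3.10 to 4.38) and 1.10 (1.00 to 1.21) in the controls, and 0.228 (0.115 to 0.422) and 0.135 (0.111 to 0.164) in the cKO libraries. With the 40-cell library the genotypes did not separate: it had 21 cells of cluster 5 to 1 of cluster 9 (a ratio of 21.0, 3.38 to 868) and to 0 of cluster 3 (lower limit 5.21). With beta cells of clusters 3 and 9 left out of the denominator, cluster 5 was 23.9% of the rest in the high-fat control library and 16.3% in the high-fat cKO library. The log2 ratio then was -0.55 (-0.80 to -0.30) in place of -1.77. The difference was thus smaller, with the same direction, among the remaining beta cells. Against cluster 7, at the opposite end of the embedding, there were 1.91 (1.67 to 2.19) and 1.13 (1.03 to 1.24) cluster 5 cells per cell in the controls and 0.459 (0.367 to 0.573) in the high-fat cKO library. The batch 2 library had the highest ratio of these 4, at 3.25 (1.00 to 13.7), from 13 and 4 cells. In the 40-cell library this ratio was 2.33 (1.02 to 5.79), near that of the normal-diet control library, and its clusters 5 and 7 together held 30 of its 31 beta cells.

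**Figure D2:**
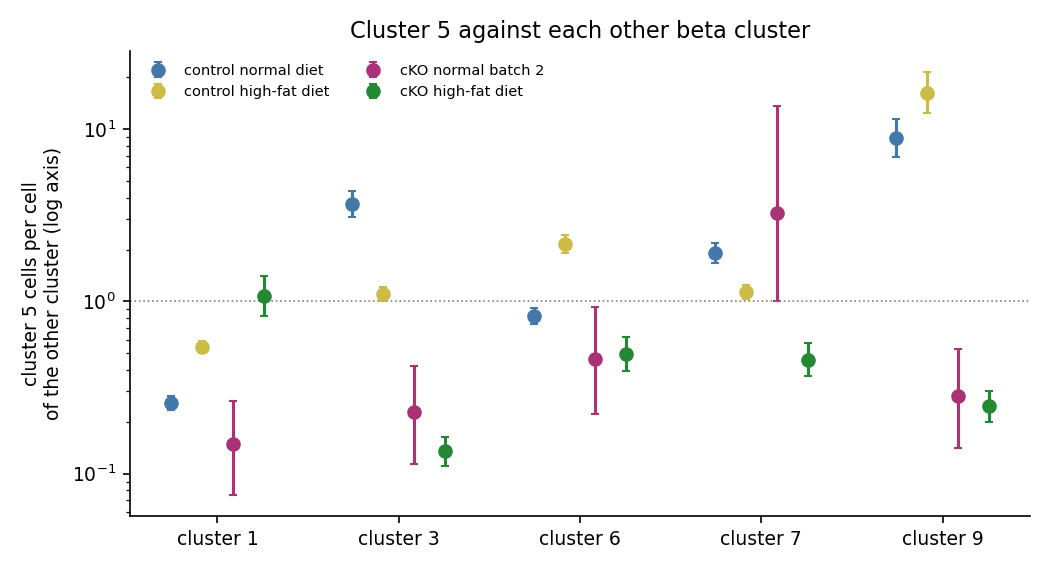
Number of cluster 5 cells per cell of each other beta cluster (vertical log axis) in the 4 libraries with over 40 cells, with exact 95% intervals; the dotted line marks equal numbers. The control libraries lie above the cKO libraries for clusters 3, 6 and 9, with overlapping intervals for cluster 6 on the normal diet, whereas for cluster 1 the high-fat cKO library is the highest, at 1.07.

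The second question was where cluster 5 lies in the embedding, a map in which neighbouring points had like expression profiles but distances have no unit. Cluster membership and the map are taken to come from the same expression values, although how the clusters were made is not stated. These positions are therefore a description and no test. Cluster 5 formed the low end of UMAP axis 1, with a median position of -8.23 and 90% of its cells between -9.19 and -6.71, where beta cells as a whole ran from -9.48 to 9.41. Along axis 2, 90% of its cells lay between -3.86 and 0.92. When cells closer than 0.5 map units were linked, 1716 of the 1722 cells (99.7%) formed 1 island. The 6 cells outside it all came from the normal-diet control library. Of these, 3 lay among immune cells (cluster 10), 2 beside cluster 6 and 1 at the far end of the map within cluster 7 (93.3% of its neighbours).

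**Figure D3:**
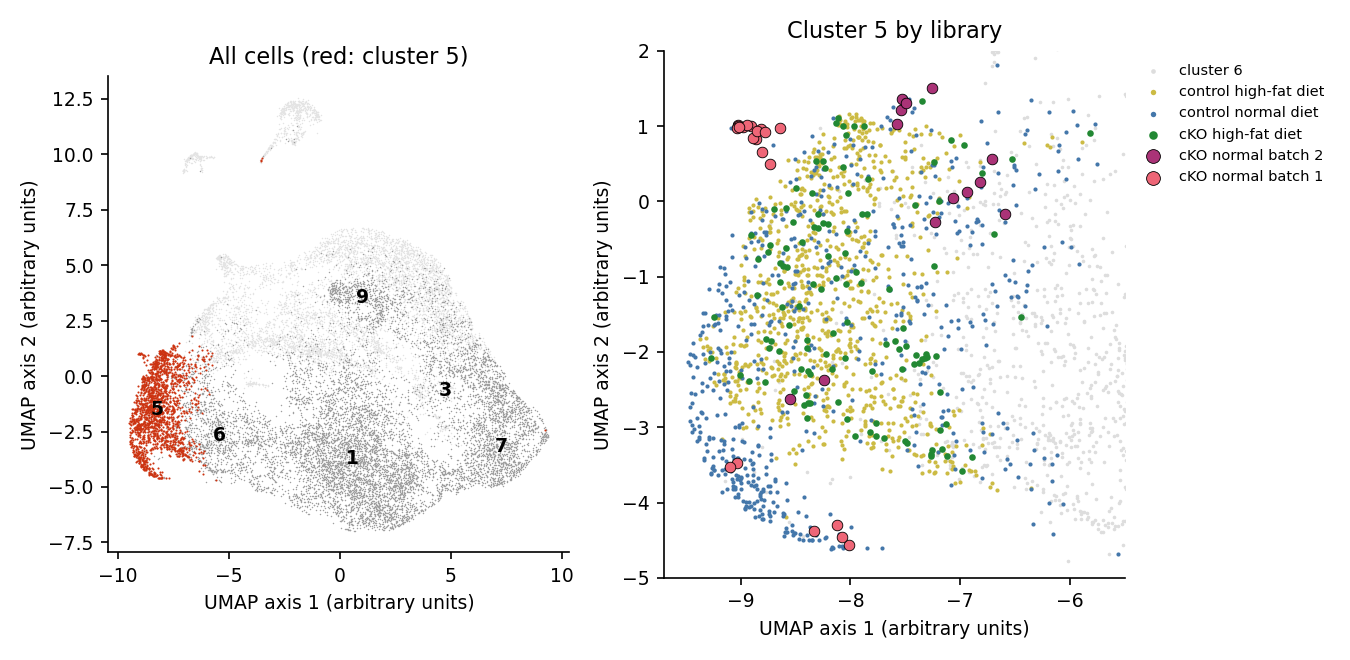
Deposited UMAP positions (arbitrary units on both axes) of all cells, left, with cluster 5 in red, other beta clusters in dark grey and other cell types in light grey, and of cluster 5 enlarged and coloured by library, right, with 4 cluster 5 cells outside the frame. Cluster 5 is a compact lobe at the low end of axis 1 beside cluster 6, and cells of the batch 1 normal-diet cKO library sit on its outer rim.

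Cluster 5 held most of the outer edge of the beta cells. Among the 1161 beta cells farthest from the median beta position (the outer 10%), 1123 (96.7%) belonged to cluster 5, against 14.8% of all beta cells. Cluster 6 gave 29 of the rest, and cluster 7 none. That median lies nearer to cluster 7, however. When distance was taken from the middle of the beta range, cluster 5 gave 49.3% and cluster 7 gave 47.8% of the outer 10%, so that the beta cells have 2 extremes, with cluster 5 at one and cluster 7 at the other. Of the 26 corners of the outline (convex hull) around all beta cells, 9 were cluster 5 cells, 8 cluster 7 and 7 cluster 3. The 9 were also corners of the outline around all cell types. The edge was not thinly filled: the median distance from a cluster 5 cell to its 30th nearest beta cell was 0.243 map units, the shortest of the 6 beta clusters, beside 0.345 in cluster 6 and 0.263 in cluster 7. Of the 10% of beta cells with the largest such distance, 3.53% were in cluster 5. Without the 40-cell library, cluster 5 gave 96.5% of the outer 10%.

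Cluster 5 bordered a single beta cluster. Of the 30 nearest cells to each member, 88.7% were in cluster 5 and 9.84% in cluster 6. Clusters 1 and 9 supplied no neighbour, and cluster 3 supplied 0.00194% and cluster 7 0.112%. Other cell types made up 1.40%, led by delta cells (cluster 4, the somatostatin cells) at 0.759%, alpha cells of cluster 8 (glucagon cells) at 0.343% and immune cells at 0.267%. Without the 40-cell library the own-cluster share was 88.6%. Of the other beta clusters, cluster 1 had 90.05% of its neighbours in itself, cluster 7 87.6% and cluster 6 80.3%, whereas clusters 3 and 9 had 53.6% and 64.4%. The border with cluster 6 was mutual: cluster 5 supplied 11.6% of the neighbours of cluster 6 cells, more than any other cluster except cluster 6 itself.

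How far cluster 5 cells reached into that border differed between libraries. The share of their neighbours in cluster 6 was 14.6% in the normal-diet control library and 6.54% in the high-fat control library. It was 10.6% in the high-fat cKO library, 20.0% for the 13 cells of the batch 2 normal-diet cKO library and 3.17% in the 40-cell library. Cells with all 30 neighbours in cluster 5 were 42.4% (39.3 to 45.7%) of the high-fat control, 30.8% (27.3 to 34.6%) of the normal-diet control and 37.8% (29.1 to 47.2%) of the high-fat cKO members. They were 5 of 13 batch 2 cells (38.5%, 13.9 to 68.4%) and 2 of 21 cells of the 40-cell library (9.52%, 1.17 to 30.4%), and 37.7% of all members without that library. Cells with fewer than 50% of their neighbours in cluster 5 numbered 120, or 6.97% of the cluster, and 97 of them came from the normal-diet control library. They were 15.4% (12.7 to 18.5%) of its members, against 1.70% (0.976 to 2.75%) in the high-fat control and 3.36% (0.923 to 8.38%) in the high-fat cKO library. They were 3 of 13 batch 2 cells (23.1%, 5.04 to 53.8%) and 0 of 21 cells of the 40-cell library. Conversely, cluster 6 cells lying mostly among cluster 5 cells were 5.90% (4.33 to 7.81%) of cluster 6 in the normal-diet control library, 11.0% (8.21 to 14.3%) in the high-fat control library and 11.2% (7.51 to 15.9%) in the high-fat cKO library. They were 1 of 28 batch 2 cells (3.57%, 0.0904 to 18.3%), and the 40-cell library had 0 cluster 6 cells. With 1 library in each control group and in the high-fat cKO group, a difference between libraries cannot be told apart from one between diets or genotypes.

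**Figure D4:**
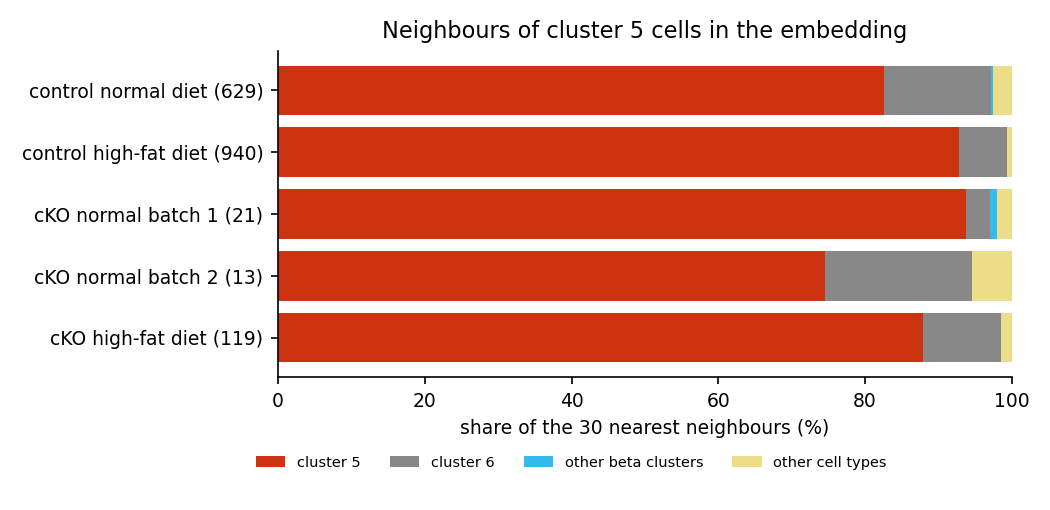
Share of the 30 nearest neighbours (horizontal axis, %) of cluster 5 cells that were in cluster 5, cluster 6, other beta clusters or other cell types, for each library, with the number of cluster 5 cells in brackets. After cluster 5 itself, cluster 6 has the largest share in every library, from 3.17% in the 40-cell library to 20.0% in the batch 2 normal-diet cKO library.

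Libraries also took different places within cluster 5. The cluster was divided along axis 2 into 4 bins of equal cell number, a division chosen after its shape had been seen. Normal-diet control cells were most frequent in the lowest bin, with 38.0% (34.2 to 41.9%) of them there and 18.4 to 24.8% in each other bin. High-fat control cells had 17.4% (15.1 to 20.0%) in the lowest bin, and high-fat cKO cells 18.5% (12.0 to 26.6%). The contrast was wider in the lowest 173 cells, a tail along the outer margin. Of these, 143 (82.7%) came from the normal-diet control library, 23 from the high-fat control library, 6 from the 40-cell library and 1 from the high-fat cKO library. The tail held 22.7% (19.5 to 26.2%) of the normal-diet control members and 2.45% (1.56 to 3.65%) of the high-fat control members.

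Normal-diet control cells were also spread more widely across the lobe. Of the 173 cells at the outer margin of axis 1 they gave 126, and of the 173 at the inner margin 113, so that 20.0% (16.97 to 23.4%) and 18.0% (15.04 to 21.2%) of them lay at those margins. For high-fat control cells these shares were 4.57% (3.33 to 6.11%) and 4.68% (3.42 to 6.23%). The interquartile range along axis 1 was 1.54 map units in the normal-diet control library, 0.771 in the high-fat control library and 0.961 in the high-fat cKO library. Of the 173 cells at the upper end, 101 (58.4%) came from the high-fat control library. It held 10.7% (8.84 to 12.9%) of the high-fat control, 8.40% (4.10 to 14.9%) of the high-fat cKO and 6.68% (4.85 to 8.92%) of the normal-diet control members. These 3 intervals overlapped, but they and the other intervals by position cover counting error only. Each of these groups had 1 library, so differences in position were not tested. The upper end also held 14 of the 21 cells of the 40-cell library (66.7%) and 6 of the 13 batch 2 cells (46.2%).

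**Figure D5:**
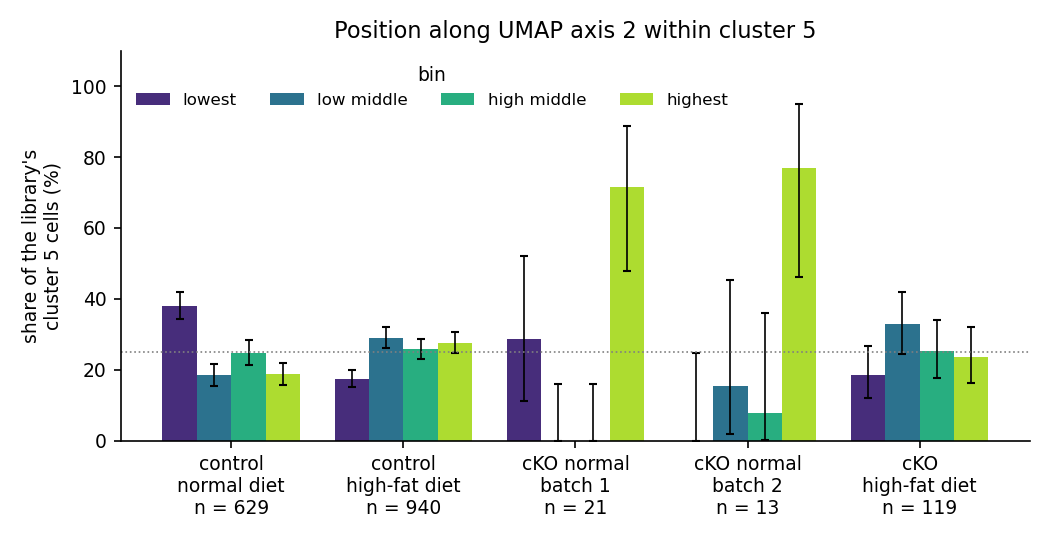
Share of each library's cluster 5 cells (vertical axis, %) in 4 bins of equal cell number along UMAP axis 2, from lowest to highest, with exact 95% binomial intervals; the dotted line marks 25%. Normal-diet control cells peak in the lowest bin at 38.0%, and both normal-diet cKO libraries, with 21 and 13 cells, peak in the highest.

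The 2 normal-diet cKO libraries were both concentrated in the highest bin, but at separate spots. Of the 21 cells of the 40-cell library, 15 (71.4%, 47.8 to 88.7%) were in the highest bin, 6 in the lowest and 0 in the middle bins, where 0 of 21 allows up to 14.3% when a count of 0 is given a limit of 3 cells (exact upper limit 16.1%). When cells of that library within 0.3 map units were linked, they formed 3 patches, of 15, 4 and 2 cells. The patch of 15 sat at the upper outer corner (mean position -8.89, 0.91), and a circle of radius 0.438 that covered it held 3 cluster 5 cells of other libraries, all from the normal-diet control library. The patches of 4 and 2 cells lay in the lower tail, at -8.14, -4.42 and at -9.06, -3.50, among normal-diet control cells. All 21 were among the outer 10% of beta cells, against 64.9% (61.0 to 68.6%) of normal-diet control, 65.9% (62.7 to 68.9%) of high-fat control and 57.1% (47.7 to 66.2%) of high-fat cKO members. Its 9 cluster 7 cells lay at the opposite extreme of the map, with a median of 9.31 on axis 1, where the cells of cluster 7 as a whole had a median of 7.30.

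Of the 13 batch 2 cells, 10 (76.9%, 46.2 to 94.96%) were in the highest bin and 0 in the lowest, which allows up to 23.1% by the same limit (exact upper limit 24.7%). Their median on axis 1, -7.25, was the innermost of the 5 libraries, whereas that of the 40-cell library, -8.86, was the outermost. No cell of either library was among the 30 nearest cluster 5 neighbours of a cell of the other. The replicates thus differed not only in how many of their beta cells were in cluster 5 but also in where these lay.

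Library mixing was measured among cluster 5 cells alone, as the observed share of same-library cells among the 30 nearest over the share expected from the cell numbers. Over all members it was 59.0% against 43.6% expected, a ratio of 1.35, and 1.33 without the 40-cell library. By library the ratio was 1.27 (1.21 to 1.32) for high-fat control, 1.50 (1.39 to 1.61) for normal-diet control and 1.59 (0.860 to 2.60) for high-fat cKO cells. It was 27.6 (12.0 to 46.7) for the 21 cells of the 40-cell library and 10.2 (0.258 to 47.7) for the 13 batch 2 cells. Each interval is an exact binomial one that treats the mean own-library share times the cell number as a count of independent cells. Nearby cells share neighbours, so the interval does not measure the spread of the ratio. For high-fat cKO and batch 2 cells it ran from below to above the expected share, from which no conclusion is drawn. Of the 13 batch 2 cells, 0 lay closer to a cluster 5 cell of their own library than to one of another. Their library gave 0.755% of cluster 5, so a count of 0 says little about mixing. A small library can reach a high ratio because its expected share is small, here 1.22% and 0.755%. With 119 cells from each of the 3 largest libraries the order differed: 1.42 for normal-diet control, 1.23 for high-fat control and 1.19 for high-fat cKO cells.

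The high-fat cKO cells lay among high-fat control cells more than among normal-diet control cells. Among their neighbours were 1.16 times the expected high-fat control cells and 0.680 times the expected normal-diet control cells. High-fat control cells in turn had 1.18 times the expected high-fat cKO neighbours and 0.610 times the expected normal-diet control neighbours. Normal-diet control cells had 0.755 times the expected high-fat cKO and 1.38 times the expected batch 2 normal-diet cKO neighbours, the latter resting on 13 cells. Without the 40-cell library the ratios of high-fat cKO cells were 1.15 and 0.672. Within this cluster the libraries thus lay closer by diet than by genotype in the 3 largest libraries, 1 for each of 3 groups, and the difference was not tested across libraries. Beside the 1.35 of cluster 5, the own-library ratio over all members was 1.51 in cluster 7 and 1.13 in cluster 6. For high-fat cKO cells the ratio was 3.18 in cluster 7 and 1.60 in cluster 6.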

How the data were processed

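The authors used Cell Ranger 7.1.0 with mouse build GRCm39, per the submitters' processing notes. How cells were filtered, doublets treated, libraries integrated and clusters made and named is not stated in the sources used here, and these steps fix which cells are counted. The deposited tables hold text labels per cell (library, genotype, diet, cell type), a cluster number used as a label and UMAP coordinates, both treated as scores without a unit. Sequencing depth is unknown, so cell numbers set the precision. Doublets were not called here.

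The 4 tables were joined by cell identifier (18221 cells in each). The number in both cKO normal-diet library names was read as the batch in the titles. Shares have exact binomial intervals, and ratios of shares 95% delta-method intervals. To exceed the replicate gap, a ratio needed an interval without 0 and a size above the log2 ratio of the cKO normal-diet pair. No p-value was computed from cells. The permutation tests enumerate libraries and were adjusted over the 6 beta clusters. Neighbours are Euclidean in both UMAP axes. No gene was named for its level. Cluster 5, the rule and the tests were chosen with earlier results of these data known. Python 3.11.15, scipy 1.17.1 and pandas 2.3.3 were used, and the interval, permutation and neighbour functions were tested on simulated data.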

Additional observations from a re-analysis of the deposited data

How the results depend on the processing

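Alternatives were all cells as the denominator, beta cells outside cluster 9 or outside clusters 3 and 9, odds, reassignment by the majority of the 30 nearest beta neighbours, 15 or 60 neighbours, and leaving out a library. Clusters 5 and 6 together, and distance from the middle of the beta range, were added after seeing the data. The contrast of genotypes on the high-fat diet kept its direction in 6 of 6 alternatives. All of these used the same libraries, 1 for each genotype, and odds cannot change the sign. Per cluster 1 cell, a ratio not among these alternatives, the order was the other way. It was 0.547 in the high-fat control and 1.07 in the high-fat cKO library. The other share contrasts that changed direction did so without the 40-cell library, or with clusters 5 and 6 together. The latter gave -0.15 for diet in control mice in place of 0.44. Leaving out each cKO normal-diet library gave log2 ratios of 0.046 and -3.57 for diet in cKO mice, -1.37 and 2.25 for genotype on the normal diet, and -0.40 and -4.02 for the ratio of diet ratios. The value -4.02, without the batch 2 library, exceeded the gap of 3.62 but lay within its interval (2.78 to 4.46). Leaving out each library in turn moved the genotype difference between -11.2 and 19.9 percentage points and the diet difference between -28.5 and 2.66 points, and both signs changed without the 40-cell library alone. The outer 10% held 3.53% cluster 5 cells when ranked by distance to the 30th neighbour and 49.3% when centred on the middle of the range. The own-library ratio over all members was 1.28 with equal cell numbers. The ratio of the 21 cells of the 40-cell library was 47.1 with 15 neighbours and 14.1 with 60. No paired analysis was possible because 3 of the 4 groups had 1 library. The embedding was used as deposited, so leaving out a library does not remove its part in making the map.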
